A study of Mus musculus with 12 samples.

Results

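Collagens, laminins and integrins make up the fibrous matrix, the basement membrane and the cell-surface receptors that bind them. Genes were taken by name from the platform annotation: symbols of the form Col plus a chain number, Lama, Lamb or Lamc plus a chain number, and symbols beginning with Itga or Itgb. Where a gene had several probe sets, the brightest one over the 12 arrays stood for it. This gave 78 of the 17097 genes measured: 42 collagen chains, 8 laminin chains and 28 genes with an integrin name. Of the latter, 23 encode integrin subunits. The other 5, Itgb1bp1, Itgb1bp2, Itgb3bp, Itgbl1 and Itgb2l, match by name only and were kept apart. The members have 136 probe sets in all. The chains Col6a6, Col28a1, Lama4, Lama5, Itga11, Itgad and Itgb8 were not analysed here.

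RNA came from 4 groups of 3 arrays of embryonic mouse brain, all of mixed genetic background. In the YAP experiment, forebrain and midbrain were dissected at E11.5. The overexpression embryos carried TetO-YAP1, a doxycycline-dependent allele of the mutant YAP1-S127A, together with Nes-rtTA, whose transactivator is driven by the Nestin promoter and so acts in neural progenitors. Their controls carried Nes-rtTA only, and per the design text the dams were fed doxycycline at 200 mg/kg of food from E7.5. In the Nf2 experiment, dorsal telencephalon was dissected at E13.5 from Nf2F/F;Emx1-Cre embryos (knockout) and from Nf2F/+;Emx1-Cre embryos (control), so every embryo carried the telencephalon-specific Cre and the controls could lose 1 copy of Nf2. YAP is the transcriptional co-activator restrained by the Hippo kinases, and Nf2 encodes Merlin, which acts upstream of them. The comparisons ask which genes differ when YAP is active in progenitors, and when Nf2 is deleted in the dorsal telencephalon.

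Laminins are secreted as trimers of an alpha, a beta and a gamma chain and polymerize into the first layer of a basement membrane, which a type IV collagen network then stabilizes. Fibrillar collagens give connective tissue its strength, and in the embryonic head they are made mainly by mesenchyme and meninges. Integrins are alpha-beta pairs that grip these ligands and link them to actin. In the developing cortex, radial glia anchor their end-feet to the basement membrane under the pia, and the vessels of the brain carry a basement membrane of their own.

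All values are log2 intensities. The median over all probe sets was 5.03 to 5.10 on the YAP arrays and 4.30 to 4.42 on the Nf2 arrays, so levels were compared only within an experiment. Arrays of a group correlated across genes at 0.994 or more. A gene was called at an adjusted p under 0.05 in limma, with Benjamini-Hochberg adjustment over all 17097 genes, and only called genes are described as having risen or fallen. The labels do not say that the arrays of a group came from separate embryos, so the p-values reflect only how these samples vary, and part of that may be technical. En2, a midbrain marker, averaged 9.45 in the YAP controls, above their array medians, and 3.04 in the Nf2 controls, below theirs. YAP control 3 had the lowest summed signal of mesenchymal, meningeal and pericyte markers among its controls (3732, against 5054 and 5619). Nf2 knockout 3 had the lowest summed signal of endothelial markers of its experiment (2101, against 2464 to 2769 on the other arrays). Leaving out control 3 turned the sign of 8 of the 78 YAP differences, and leaving out knockout 3 that of 4 of the Nf2 differences. Of the 25 absolute differences of 0.2 or more in each experiment, 9 with YAP overexpression and 5 with Nf2 knockout turned or moved by over 1.5 times, and their values without the array are given.

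Most of the 78 genes moved little. Their mean level lay above the array median for 39 genes in the YAP experiment and for 36 in the Nf2 experiment, with 34 above it in both and 37 in neither. The 95% interval of the log2 difference lay within 0.5 either way for 55 of the 78 genes with YAP overexpression and for 52 with Nf2 knockout. An absolute difference of 0.5 or more was measured for Col1a1 and Col6a3 in the YAP experiment, and for Col6a3 and Lama2 in the Nf2 experiment. In the heat map of every member on every array, YAP control 3 is blue for Col1a1, Col6a1, Col6a2, Col8a2 and Lama2, and Nf2 knockout 3 is the darkest knockout column for Col4a1, Col4a2, Col6a3, Lama2 and Lamb1.

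**Figure D1:**
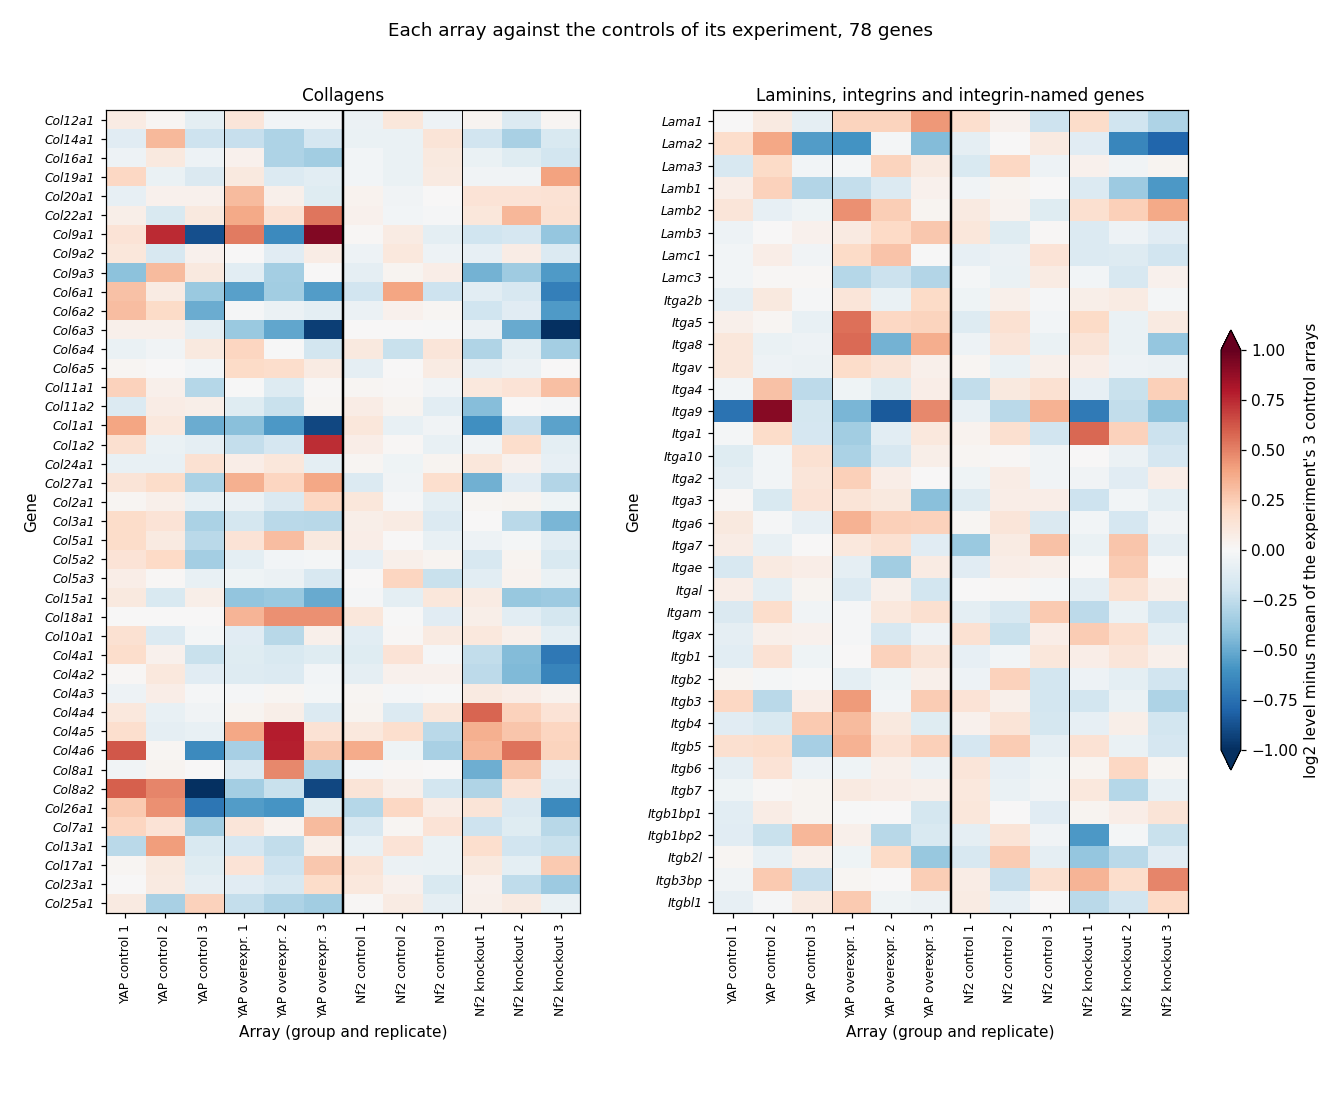
Each row is 1 of the 78 genes and each column 1 of the 12 arrays; colour gives the log2 level minus the mean of that experiment's 3 controls, with red above and blue below (colours end at 1 either way). Most rows are pale; Col18a1 is red on all 3 YAP overexpression arrays, and Col4a1 and Col4a2 are blue on all 3 Nf2 knockout arrays.

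Among the 78 genes, Col18a1 was the one called higher and Lamc3 the one called lower with YAP overexpression. Over all genes 6.31% were called in this comparison, 2.67% higher and 3.64% lower, so 2 calls among 78 members lie below that background. Col18a1 encodes the alpha chain of type XVIII collagen, a heparan sulfate-bearing collagen of basement membranes whose cleaved end is endostatin. RefSeq (GRCm38.p6) places the gene on chromosome 10 from 77052178 to 77166530, on the minus strand, and its promoter table lists 2 starts. The 250 bases before each start are shown because Col18a1 is the member whose call did not depend on the settings tried. Capitals mark GGAATG or its reverse complement CATTCC, the core of the motif bound by TEAD factors, the DNA-binding partners of YAP. The windows are chr10:77166531-77166780, before the outer start, and chr10:77113706-77113955, before a start inside the annotated gene, both written 5′ to 3′ on the minus strand.
Col18a1, outer start: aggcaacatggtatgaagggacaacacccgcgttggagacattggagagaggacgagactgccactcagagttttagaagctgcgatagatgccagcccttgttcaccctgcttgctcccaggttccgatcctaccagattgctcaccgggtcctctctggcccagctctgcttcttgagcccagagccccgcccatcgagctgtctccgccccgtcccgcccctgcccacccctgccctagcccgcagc
Col18a1, inner start: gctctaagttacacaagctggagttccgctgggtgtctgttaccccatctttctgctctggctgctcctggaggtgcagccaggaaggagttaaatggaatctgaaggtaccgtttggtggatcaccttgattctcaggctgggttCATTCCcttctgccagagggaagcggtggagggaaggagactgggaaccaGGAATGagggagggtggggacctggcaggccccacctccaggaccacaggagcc
The outer window holds no match. The inner window holds CATTCC beginning 104 bases before the start and GGAATG beginning 54 bases before it. Of all 32851 promoters in the table, 12.6% held the motif on either strand of the same 250 bases and 1.02% held it 2 or more times. Of the 78 members, 57 matched the table with 63 promoters, and 7 of these (11.1%) held it, close to the share of all promoters. The matches were before Col18a1, Col20a1, Col3a1, Col6a2, Itga10, Itgb1 and Lamb3, and the inner Col18a1 start was the member promoter with 2. A match describes letters, not binding, and from which start the measured RNA came was not tested.

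The YAP control arrays read 9.60, 9.60 and 9.60 for Col18a1, and the overexpression arrays read 9.94, 10.06 and 10.06. All overexpression arrays lay above all controls. The rise was 1.34-fold (log2 0.42, SE 0.08, 3 arrays against 3, adjusted p = 0.0103). Another Col18a1 probe set rose by 0.36. Endothelial markers, whose cells also make basement membrane, summed to between 2315 and 2516 in controls and between 2268 and 2552 with overexpression, 7 of 12 higher. Choroid plexus markers summed to between 3013 and 3401 against 3361 to 3662, and 1 of 8, Folr1, rose. The part of either cell type in the Col18a1 value was not tested. In bulk tissue, fewer cells of a type and less RNA per cell cannot be told apart, which holds for every difference given here.

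Col15a1 encodes type XV collagen, the other multiplexin and the closest relative of Col18a1. It went the other way. It read 5.29, 5.04 and 5.25 in controls and 4.80, 4.82 and 4.69 with overexpression, without overlap. The difference of -0.42 (SE 0.12, 3 arrays against 3) missed the threshold (adjusted p = 0.0592).

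Across the 42 collagens, 16 were higher and 25 lower with YAP overexpression as deposited, with Col2a1 at no difference, but 21 were higher and 21 lower once array medians were subtracted. Their median log2 difference was -0.04, beside -0.01 over all genes. Over the 78 members 36 were higher and 41 lower as deposited, 34 and 44 without control 3, 39 and 39 with quantile normalization, and 44 and 34 once array medians were subtracted, so the balance of signs depended on the scaling. At an unadjusted p under 0.05, 16 of the 78 members passed (10 higher, 6 lower), which is 20.5% where 19.6% of all genes passed. Overexpression and control arrays did not overlap for 12 members (9 higher, 3 lower), or 15.4%, where 21.3% of all genes did not overlap. The first share is near the background and the second below it.

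The largest fibrillar difference was that of Col1a1, which encodes the main chain of type I collagen, the fibre of connective tissue. Controls read 6.67, 6.38 and 5.78 and overexpression arrays 5.86, 5.70 and 5.37. Control 3 lay below overexpression 1, so the groups overlapped. The difference of -0.63 (SE 0.20, 3 arrays against 3) was not called (adjusted p = 0.0841). Without control 3 it was -0.88 and was called, as it was with the replicate block and with a trended prior. Its partner chain Col1a2, represented by a dim probe set, read 5.06, 4.83 and 4.81 against 4.66, 4.73 and 5.64. The single high array, overexpression 3, set its difference of 0.11 (adjusted p = 0.835). Col3a1, the fibre of soft tissue and vessel walls, was lower by 0.24 (SE 0.14), with its other probe set at -0.30, and was not called (adjusted p = 0.39). Without control 3 its difference was -0.40. Col27a1, a fibrillar collagen of cartilage, was the opposite case: all 3 overexpression arrays (7.10, 6.96 and 7.13) lay above the controls (6.87, 6.93 and 6.43), yet the difference of 0.32 was not called (adjusted p = 0.217), was 0.16 without control 3, and another probe set gave 0.07. The remaining fibrillar chains, Col2a1, Col5a1, Col5a2, Col5a3, Col11a1, Col11a2 and Col24a1, differed by -0.11 to 0.18, with no call. Col5a1 was at 0.18, and its other probe sets gave 0.31 (SE 0.10) and -0.08.

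Type VI collagen forms beaded filaments around cells and in meninges. Its chain Col6a3 read 7.71, 7.71 and 7.56 in YAP controls and 7.29, 7.14 and 6.72 with overexpression. The groups did not overlap, and the difference of -0.61 (SE 0.20, 3 arrays against 3) was not called (adjusted p = 0.105). Col6a1 was lower by 0.48 (7.11, 6.90 and 6.45 against 6.28, 6.47 and 6.26), with overexpression 2 above control 3 (adjusted p = 0.21), and by 0.67 without that control. Col6a2, the third chain of the classical trimer, differed by -0.06, or by -0.31 without control 3, and the low-level genes Col6a4 and Col6a5 by 0.01 and 0.15. Col8a2, a network-forming collagen of Descemet's membrane and vessel walls, also varied widely between arrays. It read 7.58, 7.47 and 5.89 in controls and 6.64, 6.76 and 6.07 with overexpression. The difference of -0.49 was not called (adjusted p = 0.508), became -1.04 and was called without control 3, and was -0.19 without control 1.

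Mesenchymal, meningeal and pericyte markers were measured on the same arrays, and 13 of 16 were lower with YAP overexpression (median -0.18), none called. At an unadjusted limma p under 0.05, 2 of the 16 passed, where 19.6% of all genes did. The markers summed to 5054, 5619 and 3732 in the controls and to 4135, 3783 and 4168 with overexpression. Control 3, the lowest of the controls here, was also the lowest control for Col1a1, Col6a1, Col6a3, Col8a2, Lama2 and Col26a1. Among the overexpression arrays, array 3 had the highest marker sum and the lowest level of Col1a1, Col6a1, Col6a3 and Col8a2. For Lama2 array 1 was the lowest, and for Col26a1 array 3 was the highest. By the mean log2 level of the markers, overexpression 1 was the highest (7.001, against 6.935 and 6.979), so the order depended on the gene and the measure. Col26a1 itself read 8.25, 8.45 and 7.27 against 7.43, 7.40 and 7.87 (-0.42, adjusted p = 0.462, and -0.78 without control 3). The part of these cells in the collagen values was not tested.

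Of the 6 chains of type IV collagen, the network of basement membranes, none was called with YAP overexpression. Col4a1 differed by -0.13 and Col4a2 by -0.10, the chains of the ubiquitous trimer, and another Col4a1 probe set gave -0.27. Col4a5, a chain of the trimers of kidney, lung and smooth muscle basement membranes, was higher by 0.44: controls read 8.70, 8.44 and 8.46 and overexpression arrays 8.92, 9.32 and 8.68. Overexpression 3 lay just below control 1, and the difference was not called (SE 0.15, adjusted p = 0.126), with another probe set at 0.46. Its neighbour Col4a6 ranged from 4.49 to 5.75 among controls and from 4.80 to 5.91 with overexpression, and its difference of 0.24 was -0.08 without control 3. Col4a3 and Col4a4 differed by -0.01 and -0.02, Col8a1 by 0.01 and Col10a1 by -0.11.

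Of the 9 FACIT collagens, which decorate fibrils, Col22a1 of tissue junctions separated the groups. It read 4.65, 4.44 and 4.69 in controls and 4.97, 4.74 and 5.13 with overexpression (0.35, adjusted p = 0.0723). Col9a1 ranged from 6.60 to 8.22 in controls and from 6.84 to 8.40 with overexpression, a spread larger than its difference of 0.27 (SE 0.39), which was -0.17 without control 3. The other 7, Col9a2, Col9a3, Col12a1, Col14a1, Col16a1, Col19a1 and Col20a1, lay between -0.23 and 0.08. Of the transmembrane collagens, Col25a1 was lower by 0.30 (adjusted p = 0.191), or by 0.18 without control 3, and Col13a1, Col17a1 and Col23a1 differed by -0.12, 0.07 and -0.03. Col7a1, the anchoring fibril of skin, differed by 0.16, or by -0.02 without control 3.

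Among the 8 laminins, 5 were higher and 3 lower with YAP overexpression (median 0.13), the same split under both other scalings. Lamc3 encodes a gamma chain that meningeal cells supply to the basement membrane of the cortex. The Lamc3 arrays read 5.64, 5.68 and 5.68 in controls and 5.38, 5.45 and 5.37 with overexpression, without overlap. Lamc3 fell by 0.27 on the log2 scale (SE 0.07, 3 arrays against 3, adjusted p = 0.0481), just past the threshold. It was called under none of the 14 alternatives that could test it, with adjusted p from 0.0524 to 0.181, while its value stayed between -0.40 and -0.22. Its other probe set was lower by 0.52 with a wider error (SE 0.21).

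Lama1, Lamb1 and Lamc1 form laminin-111, the early laminin of embryonic basement membranes, including that under the pia. Lama1 read 8.20, 8.29 and 8.11 in controls and 8.42, 8.42 and 8.63 with overexpression, without overlap (0.29, SE 0.13, adjusted p = 0.245). Lamc1 was higher by 0.16 (adjusted p = 0.368), with 7.53, 7.62 and 7.52 against 7.75, 7.84 and 7.55. Lamb1 differed by -0.11 (adjusted p = 0.742), with 8.55, 8.72 and 8.19 against 8.25, 8.35 and 8.53, and by -0.26 without control 3. No chain of the trimer was called. Lama2, the alpha chain of muscle, vessel and glial basement membranes, read 7.44, 7.65 and 6.71 against 6.67, 7.25 and 6.83. Its difference of -0.35 (adjusted p = 0.47) was -0.16 without control 2 and -0.63 without control 3. Lamb2, the beta chain of synaptic and vascular laminins, was higher by 0.25 and Lamb3, an epithelial beta chain, by 0.18, neither called (adjusted p = 0.241 and 0.214). Lama3 differed by 0.10.

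**Figure D2:**
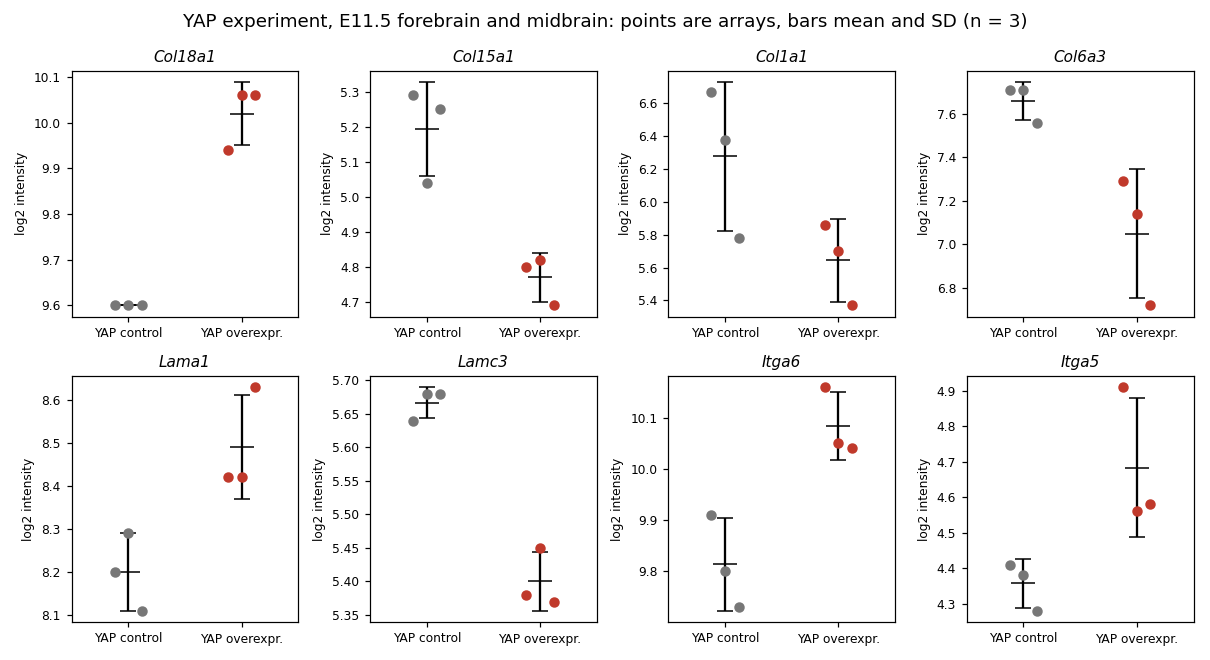
Points are the 3 arrays of each YAP group, in log2 intensity, with the mean (long bar) and SD; axes differ between panels and do not start at 0. Col18a1, Lama1, Itga6 and Itga5 lie higher and Col15a1, Col6a3 and Lamc3 lower on all overexpression arrays, while Col1a1 overlaps through control 3.

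None of the 23 integrin subunits was called with YAP overexpression in the main limma fit, and Itga6 was called in 2 alternatives. At an unadjusted p under 0.05 in the main fit 2 passed, where 19.6% of all genes did. As deposited 13 were higher and 10 lower (median 0.07), and 16 and 7 once array medians were subtracted. The interval of the difference lay within 0.5 either way for 17 of them. Of the 23, 10 averaged above the array median. Itga6, the alpha subunit that binds laminin on radial glial end-feet and endothelium, read 9.91, 9.80 and 9.73 in controls and 10.16, 10.05 and 10.04 with overexpression. All overexpression arrays were higher, by 0.27 on average (SE 0.09, 3 arrays against 3, adjusted p = 0.0892). Its other probe set gave 0.39. When only genes above the median level were tested, or with the trended prior, Itga6 was called (adjusted p = 0.04 and 0.0361). The other laminin receptors Itga3 and Itga7 differed by -0.06 and 0.05. Itga3 read 4.93, 4.77 and 5.06 against 5.05, 5.02 and 4.50, and Itga7 read 4.44, 4.29 and 4.37 against 4.47, 4.52 and 4.25. Both groups overlapped in each.

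The receptor subunits Itga5, Itga8, Itgav and Itga2b bind RGD-bearing ligands such as fibronectin and vitronectin. At their brightest probe sets all were higher with YAP overexpression, under each scaling tried, by 0.08 to 0.33. None was called. Itga5, the fibronectin receptor, separated the groups: 4.41, 4.38 and 4.28 in controls against 4.91, 4.56 and 4.58 with overexpression. Its difference of 0.33 (SE 0.11) was not called (adjusted p = 0.11), was 0.21 without overexpression 1, and its level lay below the array median. Itgav read 9.88, 9.72 and 9.71 against 9.95, 9.90 and 9.82 (0.12, adjusted p = 0.429). Its other probe sets, dim at mean levels of 4.01 to 4.29, gave -0.23, 0.07, -0.08 and -0.09. Itga8 read 5.90, 5.72 and 5.73 against 6.35, 5.31 and 6.15 (0.15), with overexpression 2 below every control. Itga2b, the platelet subunit, differed by 0.08, beside megakaryocyte and platelet markers summing to between 722 and 916 in controls and between 617 and 933 with overexpression.

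Itgb1 is the common beta partner of most of these receptors. It read 9.38, 9.63 and 9.44 in controls and 9.49, 9.71 and 9.61 with overexpression, overlapping, for a difference of 0.12 (95% interval -0.07 to 0.31, adjusted p = 0.511). Another bright Itgb1 probe set gave 0.24 (SE 0.13), and the dimmer ones gave 0.24 (SE 0.07), -0.09 and -0.08. Itgb3 and Itgb5, partners of Itgav, were higher by 0.22 and 0.24, with adjusted p = 0.454 and 0.412. Without control 3 the difference of Itgb5 was 0.08. Itgb2, Itgb4, Itgb6 and Itgb7 lay between -0.03 and 0.10. Itgb7 did not overlap, although its difference was 0.07. The collagen receptors Itga1, Itga2 and Itga10 differed by -0.12, 0.10 and -0.14. Itga9, a receptor for tenascin and other ligands, varied widely between arrays: 5.03, 6.68 and 5.59 in controls against 5.31, 4.93 and 6.25. Its difference of -0.27 (SE 0.39) changed sign without control 2 (0.19) or without overexpression 2 (0.01), and its other probe sets gave -0.08 and 0.12. Itga4, its closest relative, differed by -0.03. The leukocyte subunits Itgae, Itgal, Itgam and Itgax ranged from -0.12 to 0.08. The 5 name matches, none an integrin subunit, ranged from -0.13 to 0.09.

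Other genes of the pathway include several that were called with YAP overexpression. They come from lists chosen for their role, with earlier results of these data known. Of 21 genes for collagen synthesis and cross-linking, 5 rose and none fell. P4ha2, a prolyl hydroxylase subunit, rose by 0.91 (SE 0.23) and Plod2, a lysyl hydroxylase, by 0.52 (SE 0.14). The lysyl oxidases Loxl1 and Loxl2, which cross-link collagen, rose by 0.54 (SE 0.14) and 1.16 (SE 0.24), with another Loxl1 probe set at 0.00. Adamts3, a procollagen N-propeptidase, rose by 1.36 (SE 0.16), with another probe set at 0.23. The adjusted p was 0.0385 for P4ha2, 0.0449 for Plod2, 0.0366 for Loxl1, 0.0152 for Loxl2 and 0.000582 for Adamts3. Of this list 5 of 21 were called higher, where 2.67% of all genes were. Because the list was chosen with earlier results known, the shares cannot test whether such genes rose more often than others. None of the 5 called genes was called in the Nf2 experiment. Their probe sets there gave 0.39 to 0.50 for Plod2, 0.36 for Loxl2 and 0.07 for P4ha2. Those of Adamts3 gave 0.04 to 0.12 and those of Loxl1 -0.21 to 0.02. The difference of the 2 effects was called for none of the 5 (limma adjusted p from 0.0593 to 0.89).

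Of 18 basement membrane partners, Sparc, a collagen-binding matricellular protein, rose by 0.94 (SE 0.12, adjusted p = 0.000755), and its other probe set gave 1.06. Agrn, the proteoglycan agrin, fell by 0.43 (adjusted p = 0.0245), with its other probe set at -0.09, and Smoc1 fell by 0.66 (adjusted p = 0.00127), while Nid1 and Hspg2, which link laminin to type IV collagen and heparan sulfate, differed by 0.02 and 0.29 and were not called. Of 16 other matrix ligands of integrins, Vcan, the proteoglycan versican, fell by 0.75 (adjusted p = 0.000133), but its 5 probe sets ran from -0.75 to 0.26. Fibronectin, Fn1, differed by 0.14. Of 21 integrin adaptors and signalling genes, Vcl, which couples adhesions to actin, rose by 0.64 (adjusted p = 0.00388) and Actn1, an actin crosslinker, by 0.34 (adjusted p = 0.0467). The other Vcl probe set gave 0.25, and the 3 Actn1 probe sets ran from 0.04 to 0.34. Of 13 matrix proteases and inhibitors, Adamts1 and Adamts9 rose by 1.24 (adjusted p = 5.25e-05) and 0.52 (adjusted p = 0.000837), and Mmp16 fell by 0.46 (adjusted p = 0.0384). The 3 probe sets of Adamts9 ran from -0.06 to 0.52 and the 3 of Mmp16 from -0.46 to 0.08. Neuronal markers moved in the same arrays, with 7 of 10 called lower, as did those of radial glia, with 2 called higher and 3 lower of 11. Over all genes 3.64% were called lower and 2.67% higher. The marker lists too were chosen with earlier results known, so these shares cannot test whether such markers moved more often than other genes. The part of neurons and radial glia in the values of the pathway genes was not tested.

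With Nf2 knockout, none of the 78 members was called in the main limma fit. None was with the replicate block, which takes the same-numbered arrays as pairs. Over all genes 0.252% were called. At an unadjusted p under 0.05, 10 members passed (3 higher, 7 lower), or 12.8% where 6.24% of all genes did. The groups did not overlap for 19 members (8 higher, 11 lower), or 24.4% where 12.7% of all genes did not. With the trended prior 1 member, Col4a2, was called lower. Differences were negative for 51 members and positive for 27 (median -0.07, beside 0.00 over all genes), a split that subtracting array medians did not change and quantile normalization made 52 and 26. Without knockout 3 the counts were 49 and 28 (median -0.05). Among collagens 28 were lower and 14 higher, among laminins 6 and 2, and among integrin subunits 14 and 9.

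The lower genes included both chains of the ubiquitous type IV collagen trimer. Col4a1 read 9.51, 9.77 and 9.62 in Nf2 controls and 9.39, 9.20 and 8.92 in knockouts. Col4a2 read 8.83, 8.97 and 8.97 against 8.66, 8.48 and 8.26. All knockout arrays lay below all controls for both genes, and within the same-numbered pairs Col4a1 differed by -0.12, -0.57 and -0.70 and Col4a2 by -0.17, -0.49 and -0.71. The mean differences were -0.46 (SE 0.13, adjusted p = 0.353) and -0.46 (SE 0.10, adjusted p = 0.142), and another Col4a1 probe set gave -0.58. Without knockout 3, Col4a1 differed by -0.34 and Col4a2 by -0.35. Neither was called. RefSeq (GRCm38.p6) places the pair head to head on chromosome 8, with Col4a1 from 11198423 to 11312889 on the minus strand and Col4a2 from 11312805 to 11449287 on the plus strand, so that the annotated genes overlap by 85 bases.

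The other type IV chains had positive differences. Col4a5 read 8.08, 8.14 and 7.70 in controls and 8.33, 8.25 and 8.19 in knockouts, without overlap, and was higher by 0.28 (adjusted p = 0.876). Its neighbour Col4a6, on chromosome X with 1274 bases between the annotated genes, was higher by 0.37 (SE 0.31). Col4a4 read 4.32, 4.15 and 4.40 against 4.87, 4.52 and 4.43 (0.32, adjusted p = 0.65), without overlap, while a second probe set gave 0.02. Col4a3, which overlaps Col4a4 by 114 bases on chromosome 1, did not overlap between groups at a difference of 0.06. The difference of Col4a5 was positive in both experiments (0.44 and 0.28) and called in neither.

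Lamb1, the beta chain of laminin-111, read 8.52, 8.58 and 8.56 in Nf2 controls and 8.42, 8.19 and 7.98 in knockouts, without overlap. It was lower by 0.36 (SE 0.14, 3 arrays against 3, adjusted p = 0.708), and by 0.25 without knockout 3. Its other 3 probe sets gave -0.31, -0.19 and 0.03. Lamc1 read 6.96, 6.98 and 7.18 against 6.90, 6.91 and 6.85, also without overlap, at -0.15, and Lama1 differed by -0.11 with overlap (7.14, 7.01 and 6.76 against 7.15, 6.77 and 6.66). Lama2 read 5.73, 5.83 and 5.91 against 5.71, 5.17 and 5.03. Knockout 1 was only just below the lowest control, and the mean difference of -0.52 (SE 0.23, adjusted p = 0.787) was -0.38 without knockout 3 and -0.72 without knockout 1. Lamb2 went the other way, 5.82, 5.77 and 5.61 against 5.89, 5.97 and 6.11, without overlap (0.26, adjusted p = 0.752). Lama3, Lamb3 and Lamc3 differed by 0.01, -0.10 and -0.05.

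The measured type VI chains were all lower with Nf2 knockout, under each scaling: Col6a1 by 0.32, Col6a2 by 0.29, Col6a3 by 0.54, Col6a4 by 0.25 and Col6a5 by 0.05, none called. Without knockout 3, Col6a1 was lower by 0.13 and Col6a2 by 0.16. Col6a3 read 7.40, 7.40 and 7.39 in controls and 7.34, 6.89 and 6.35 in knockouts. The controls were nearly equal and the knockouts far apart. The difference of -0.54 (SE 0.20, adjusted p = 0.682) was -0.28 without knockout 3. Col1a1 read 5.75, 5.56 and 5.60 against 5.02, 5.41 and 5.10, without overlap (-0.46, SE 0.20, adjusted p = 0.752). Col1a2 read 3.24, 3.19 and 3.10 against 3.14, 3.35 and 3.08, with a difference of 0.01. Col9a3, a FACIT chain of cartilage that is also transcribed in brain, read 5.96, 6.08 and 6.12 against 5.58, 5.70 and 5.49 (-0.46, SE 0.16, adjusted p = 0.591), and another probe set gave -0.21. Col3a1 and Col27a1 were lower by 0.24 and 0.30, with Col3a1 at -0.14 without knockout 3, Col15a1 by 0.22 and Col14a1 by 0.22. The other Col27a1 probe set gave -0.03. Col18a1, which rose with YAP, read 8.43, 8.31 and 8.20 against 8.37, 8.21 and 8.14, with a difference of -0.07 (adjusted p = 0.971). The remaining 23 collagens lay between -0.25 and 0.20, and 1 of them, Col26a1, was at -0.22, or -0.01 without knockout 3.

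Vascular markers were measured on the same arrays. All 12 endothelial markers were lower with Nf2 knockout (median -0.32), none called. At an unadjusted limma p under 0.05, 5 of them passed, Cdh5, Flt1, Cldn5, Esam and Sox17, where 6.24% of all genes did. The marker list was chosen with earlier results of these data known, so these shares cannot test whether such markers passed more often than other genes. The mean log2 level of the 12 markers was 6.47, 6.59 and 6.57 in controls and 6.50, 6.26 and 5.98 in knockouts. Their summed signal ran from 2517 to 2769 in controls and from 2101 to 2702 in knockouts. Knockout 3 was lowest for these markers and for Col4a1, Col4a2, Col6a3, Lama2 and Lamb1, and knockout 1 lay nearest the controls for the same genes. The order differed for Col1a1, with knockout 1 the lowest (5.02), and for Col9a3, with knockout 2 nearest the controls (5.70). Of 16 mesenchymal, meningeal and pericyte markers 10 were lower (median -0.07), with sums from 2597 to 2711 in controls and from 2428 to 2793 in knockouts. The part of these cells in the matrix values was not tested.

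**Figure D3:**
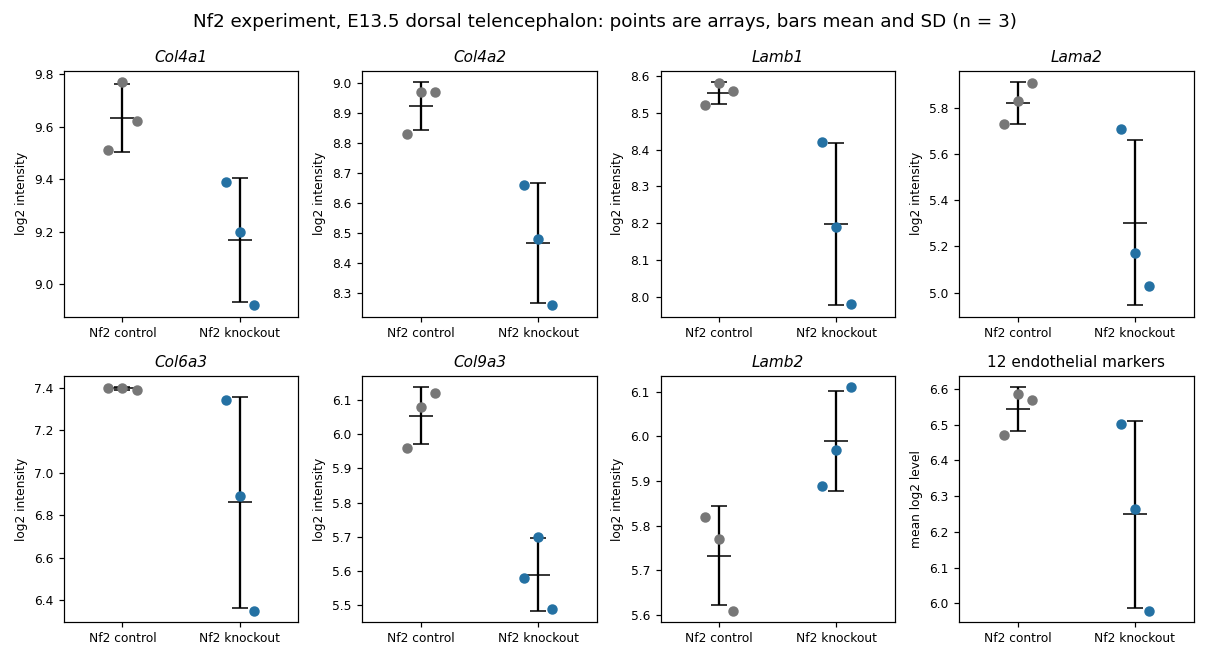
Points are the 3 arrays of each Nf2 group, in log2 intensity, with the mean (long bar) and SD; the last panel gives the mean log2 level of 12 endothelial markers, and axes do not start at 0. Knockout arrays lie below all controls for Col4a1, Col4a2, Lamb1, Lama2, Col6a3 and Col9a3 and above them for Lamb2, while the endothelial mean of knockout 1 (6.50) lies among the controls.

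No integrin subunit was called with Nf2 knockout in limma, none passed at an unadjusted p under 0.05 where 6.24% of all genes did, and no alternative called one. With the replicate block, Itgb3 had an unadjusted limma p of 0.0361 (adjusted p = 0.719), and its same-numbered pairs differed by -0.32, -0.12 and -0.12. No subunit separated the groups, where 12.7% of all genes did. The interval lay within 0.5 either way for 20 of the 23. However, 7 of the 23 averaged above the array median, and probe sets near background compress differences. Itga5 was among the dim ones, at 2.94 in controls and 3.01 in knockouts. Itgb1 read 7.98, 8.03 and 8.17 in controls and 8.13, 8.18 and 8.11 in knockouts (0.08, 95% interval -0.11 to 0.27). Its laminin-binding partners differed by -0.08 (Itga6), -0.11 (Itga3) and 0.04 (Itga7), and its RGD-binding partners by 0.07 (Itga5), -0.01 (Itgav) and -0.11 (Itga8). The arrays of Itga6 read 8.83, 8.93 and 8.66 against 8.78, 8.64 and 8.77. The largest difference among the subunits was that of Itga9, which read 3.70, 3.50 and 4.12 against 3.07, 3.53 and 3.36 (-0.45, SE 0.39, adjusted p = 0.946). This SE is shared with the YAP experiment, where Itga9 varied more (SD 0.68 and 0.84, against 0.32 and 0.23 here). The other Itga9 probe sets were at 0.02 and 0.03. Itga1 differed by 0.20, or by 0.40 without knockout 3, and the other subunits lay between -0.19 and 0.11.

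No leukocyte subunit was called, while myeloid markers were higher. In the Nf2 experiment 11 of 12 microglia and macrophage markers were higher (median 0.27, none called), and their sums of 673 to 685 in knockouts lay above the 552 to 562 of controls. Itgam, the CD11b subunit of microglia, differed by -0.17 and its partner Itgb2 by -0.11, and Itgal, Itgax and Itgae differed by 0.04, 0.11 and 0.08. Each of these 5 probe sets averaged below the array median. Of the name matches, Itgb3bp, a centromere protein named for binding an integrin tail, read 7.39, 7.08 and 7.47 against 7.65, 7.49 and 7.80, without overlap (0.33, SE 0.14, adjusted p = 0.741). Itgb1bp2, a muscle chaperone-like protein, read 3.87, 4.09 and 3.93 against 3.39, 3.94 and 3.74 (-0.27, adjusted p = 0.897). Itgb1bp1, Itgbl1 and Itgb2l differed by 0.08, -0.09 and -0.26.

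Of the other pathway genes, 1 was called with Nf2 knockout: Adamts9, a protease of versican, fell by 0.43 (SE 0.07, adjusted p = 0.0158), but its 3 probe sets ran from -0.46 to 0.13. Sparc was higher by 0.60 without a call (adjusted p = 0.0874), and Vcan lower by 0.32 (adjusted p = 0.197). No gene of the synthesis, adaptor, basement membrane or other ligand lists was called.

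The experiments share no arrays, so their signs can be set side by side. Of the 78 members, 29 were, as deposited, lower in both (37.2%, where 29.9% of all genes were) and 14 higher in both (17.9%, where 27.0% were). A further 22 were higher with YAP and lower with Nf2 knockout, 12 the reverse. Col22a1, higher, and Col6a3, lower, were the members whose groups did not overlap in either experiment (2.56%, where 3.88% of all genes did not). Col1a1, Col6a3 and Lama2 lie together at the lower left of the plot of both effects, at -0.63, -0.61 and -0.35 with YAP and -0.46, -0.54 and -0.52 with Nf2 knockout. Col4a1 and Col4a2 lie low on the Nf2 axis and nearer 0 with YAP, at -0.13 and -0.10. Without YAP control 3 these 2 YAP differences were -0.245 and -0.155.

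**Figure D4:**
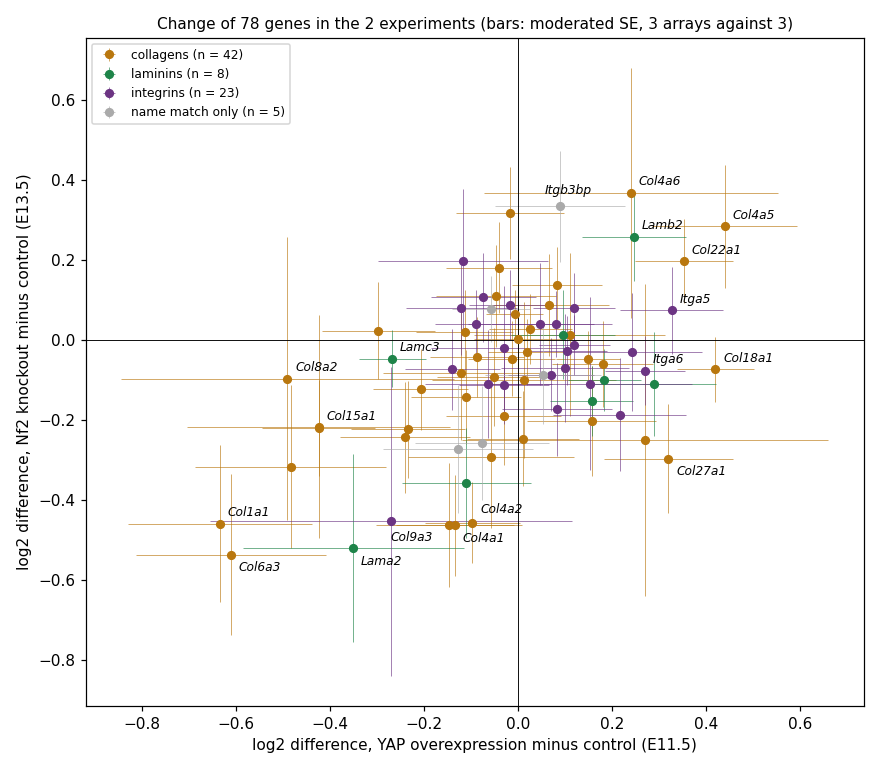
Each point is 1 of the 78 genes, with its log2 difference with YAP overexpression across and with Nf2 knockout up; bars are the moderated SE (3 arrays against 3) and colours the family. Col1a1, Col6a3 and Lama2 are lower in both experiments, Col4a5 and Col22a1 higher in both, and Col18a1 is higher with YAP (0.42) and near 0 with Nf2 knockout (-0.07).

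The difference of the effects, YAP minus Nf2, was tested in the same fit. No member was called in the main limma fit, where 0.281% of all genes were. At an unadjusted p under 0.05, 6 members passed, all with the YAP effect the higher, or 7.69% where 10.1% of all genes passed. These were Col18a1 (0.49, SE 0.12, adjusted p = 0.132), Col27a1 (0.62), Col4a2 (0.36), Itga6 (0.35), Lamc1 (0.31) and Lamb3 (0.28). The other Col27a1 probe set gave 0.07 with YAP and -0.03 with Nf2 knockout. With the trended prior Col18a1 was called. So the call of Col18a1 in the YAP experiment and its value near 0 in the Nf2 experiment were not shown to differ at the threshold used. Of the other pathway genes, Adamts1 (1.30, adjusted p = 0.00322) and Adamts9 (0.95, adjusted p = 0.00109) were called at their brightest probe sets.

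More than 1 probe set measured 38 of the members. All probe sets of a gene had the same sign for 21 of these with YAP overexpression and for 23 with Nf2 knockout. When all 28898 single-gene probe sets were tested separately, 2 member probe sets were called with YAP overexpression, both of Col18a1, and none with Nf2 knockout in limma.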

How the data were processed

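RNA was measured on 12 Affymetrix arrays, 3 per group. The values the authors deposited are log2 intensities. RMA, Affymetrix Expression Console 1.1 and Partek 6.5 appear in the submitters' processing notes, with no role given. Judging by the array medians, each experiment was normalized alone. Of 45037 probe sets, the platform table of gene names covered 29449, and the 28898 with 1 gene symbol gave 17097 genes, each taken at its brightest probe set.

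In limma 3.58.1 (R 4.3.3), 1 model with 4 group means used every array (8 residual and 4.096 prior degrees of freedom). P-values were two-sided and Benjamini-Hochberg adjusted over all genes, with a threshold of 0.05. SEs and 95% intervals are moderated. The number of arrays limits the precision. An exact permutation test of 3 against 3 cannot fall below 0.1, and none was used. The fit was also run on simulated data with independent noise on each array. Such data hold no array effects, pairs or technical replicates, so they cannot show how these act on the p-values.

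Residuals of same-numbered arrays correlated at 0.271, 0.212 and 0.207 in the Nf2 experiment, where they were taken as pairs in an alternative, the replicate block. In the YAP experiment they correlated at 0.0971, -0.195 and -0.204, while overexpression 3 and control 2 reached 0.304. The sample titles state no pairing, so whether same-numbered arrays pair is not known. The members and lists were chosen with earlier results of these data known. Values on each array are given for called members, for the 3 largest absolute differences per family and comparison, and for the chains of named pairs and trimers; others, such as Col15a1, Col4a5, Col22a1 and Col27a1, were chosen after their values were seen. Promoters came from RefSeq and were searched for the letters named.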

Additional observations from a re-analysis of the deposited data

How the results depend on the processing

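Col18a1 was called higher with YAP overexpression in all 15 alternatives, at 0.39 to 0.46 with adjusted p from 0.00186 to 0.0398. The count of members called higher was 2 among genes above the median level and 2 with a trended robust prior, each adding Itga6, and 1 to 2 when an array was left out. The count called lower was 0 with only the 6 arrays of the experiment, with median-centred arrays, with quantile normalization, among genes above the median level, with the mean of all probe sets, without _x_at and _s_at probe sets and with array weights, and 0 to 2 when an array was left out. Lamc3 was not called in any of its 14 alternatives. Leaving out YAP overexpression 2 added Col22a1, control 2 added Col25a1, and control 3 added Col1a1 and Col8a2. With the trended prior 1 member was called lower with Nf2 knockout (Col4a2) and 1 in the difference (Col18a1). No other alternative called a member in either of these. With the replicate block 1 member was called higher (Col18a1) and 1 lower (Col1a1, -0.63, adjusted p = 0.0324) in the YAP experiment. Lamc3 was not called there (adjusted p = 0.0734), and the residuals of that experiment gave no sign of pairs. In the Nf2 experiment, where a pairing was assumed from the residuals, the block called 0 members, beside 19 genes higher and 2 lower over all genes. The difference of Itga9 with YAP overexpression ran from -0.65 to 0.19 when an array was left out, and was above 0 without overexpression 2 (0.01) and without control 2 (0.19). The other members named for their size kept their sign. The sign counts and the count of moved differences without YAP control 3 and without Nf2 knockout 3 were added after seeing the data. The causes were not tested. Probe sets near background compress differences, and 37 members lay below the array median in both experiments.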
